A study of Mus musculus with 4 samples.

Results

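Mast cells sorted from the small intestine were compared with mast cells grown from bone marrow in culture, on 1 Affymetrix array each, 2 of the 4 arrays of the series. The comparison was set by the labels alone: the log2 value of the intestinal array minus that of the control array, for every probe set with 1 gene symbol in the platform annotation. This gave 22180 genes from 23521 such probe sets, out of 33793 on the array. The 2 arrays of cultures treated with TGF-beta1 or with the Notch ligand Dll1 are given below only as levels beside named genes.

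Both groups came from BALB/c mice. Control bone marrow-derived mast cells (BMMCs) had been raised for 3 to 4 weeks on 10 ng/ml murine interleukin-3 and 10 ng/ml stem cell factor and then kept in normal medium for 6 days. No sorting step is named for them. The intestinal cells came from the lamina propria of naive mice and were gated by flow cytometry on FcεRI, the high-affinity IgE receptor, together with c-Kit/CD117, the receptor for stem cell factor. Age, sex, the number of mice and any pooling are not stated in the labels. The TGF-beta1 culture had received 5 ng/ml for 6 days, and the Dll1 cells had been cocultured for 6 days with CHO cells expressing that ligand and were then bead-selected for c-Kit. Each RNA was extracted with an RNeasy Mini or Micro kit, with no statement of which was used where, and 2 ng was amplified. Tissue digestion and cell sorting therefore went with the intestinal array alone and cannot be told apart from the origin of the cells.

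Mast cells are tissue-resident immune cells whose cytoplasm is packed with granules of proteases, histamine and other amines bound to proteoglycan. Antigen that crosslinks IgE on FcεRI releases these granules and starts the synthesis of lipid mediators and cytokines. Mast cells of the gut mucosa in mice are known for the chymases Mcpt1 and Mcpt2 and for lodging in and under the epithelium, whereas those of skin and peritoneum carry tryptases, Mcpt4 and Cma1. Cultured BMMCs are commonly regarded as immature mast cells.

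The question was how the transcripts of tissue mucosal mast cells differed from those of the cultured cells. A gene was tested when it stood above a background limit on 1 array or both, and was called higher or lower from 2-fold on; values under the limit were first set to the limit. The limit was the 95th percentile of 1443 probe sets for olfactory, vomeronasal and taste receptors, genes not expected in blood cells, and lay at 5.12 on the control and 5.11 on the intestinal array. For a gene above the limit on a single array the fold is only a bound, written "at least". With 1 array a side there is no replicate error and no p-value, and a fold of 2 is a size, not a test. In 388 genes, several probe sets were above the limit on both arrays. The differences of probe sets of one gene had a standard deviation of 0.48 on the log2 scale. It gauges how far probe sets of one gene disagree, not technical error between arrays or variation between animals or cultures. Some probe sets of one gene hold identical values, which lowers it.

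Among 12722 genes tested, 569 (4.47%) were higher and 857 (6.74%) were lower in intestinal mast cells. At 4-fold the order was the same, with 160 (1.26%) higher and 189 (1.49%) lower, while at 8-fold 79 (0.621%) were higher and 50 (0.393%) lower. Of the higher genes, 118 were below the limit on the control array, and of the lower ones 86 were below it on the intestinal array. The shares of 4.47% and 6.74% are the yardstick for the gene lists below. List counts are given over measured members, some of them below the limit on both arrays, whereas the shares are over genes tested. The median difference over all genes was 0.0044. The middle of the distribution was narrow, with 5th and 95th percentiles of -1.18 and 0.99 among the genes tested. Xist, from the inactive X chromosome of female cells, read between 10.63 and 11.23 on the 4 arrays, and the Y-linked genes Kdm5d, Eif2s3y and Uty were below the limit on each. These 4 genes were picked after their values were seen.

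**Figure D1:**
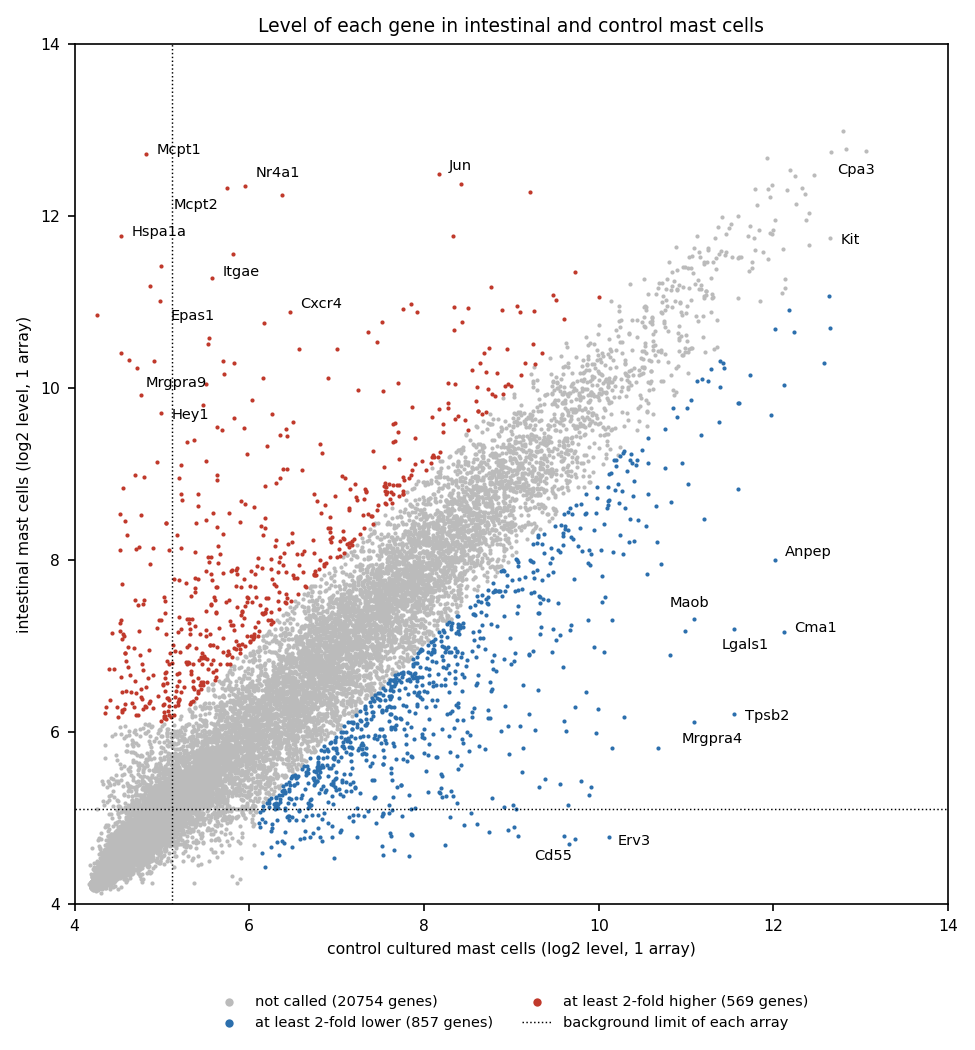
Each point is 1 gene, with its log2 level on the control array on the x axis and on the intestinal array on the y axis; red and blue points were at least 2-fold higher or lower in intestinal cells, and dotted lines mark the background limits. Mcpt1, Hspa1a, Epas1, Mrgpra9 and Hey1 lie above the cloud and left of the control limit, Tpsb2, Cma1 and Mrgpra4 lie far below the cloud, and Kit and Cpa3 stay in it.

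Mast cell markers were present on both arrays. Of 11 measured mast cell markers, all were above the limit on both arrays, 1 was lower and none was higher, with a median difference of -0.63. Counting any size of difference, 2 of the 11 read above control. Their summed linear level was 28450 in control, 24900 after TGF-beta1, 26100 after Dll1 and 18480 in intestinal cells. Kit read 12.65 in control and 11.75 in intestinal cells, the IgE receptor chain Fcer1a 12.41 and 11.66, and the transcription factor Gata2, needed for mast cell formation, 10.54 and 10.41. Cpa3, the granule carboxypeptidase, read 13.06 and 12.76, at the top of the range of the arrays, where saturation could hide a difference. Slc18a2, the vesicular amine transporter, was the marker past the threshold, at 11.60 and 9.83.

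Markers of other cells were higher on the intestinal array in part, so counts over each list are given. Of 22 measured T cell and innate lymphoid markers, 8 were higher and none lower, with 9 members above the limit on the control and 17 on the intestinal array. Counting any size of difference, 19 of the 22 read above control, with a median of 0.76. Their summed linear level was 728.5 in control, 657.9 after TGF-beta1, 2287 after Dll1 and 4382 in intestinal cells. The T cell receptor chains Cd3g (4.55 and 8.84), Cd3e (4.80 and 7.53) and the coreceptor chain Cd8b1 (4.96 and 7.31) were below the limit in control BMMCs and above it in intestinal cells, while Cd2, Cd28, Klrd1 and Klrk1 were below it on both. Among 30 intestinal epithelium markers, 6 were higher, and the summed level was 917.7 in control and 2682 in intestinal cells. All 30 read above control by some amount, with a median of 0.64, and 7 were above the limit on the control and 21 on the intestinal array. Epcam, Krt19, Vil1, Sis, Lct, Lgr5, Chga, Chgb and Cldn7 were below the limit on both. Of 19 macrophage and dendritic markers, 4 were higher (Itgax, C1qb, C1qa and Csf1r), and the sums were 1343 and 4672. By any amount, 17 of the 19 read above control, with a median of 0.30, and 7 were above the limit on the control and 14 on the intestinal array. C1qc, Cd163, Clec10a, Mrc1 and Zbtb46 were below the limit on both. Single members carried much of these sums; those left out next were chosen after their values were seen. Without Itgax and Cx3cr1 the macrophage and dendritic sums were 618.8 and 1028, without Cdh1 the epithelial sums were 846.3 and 1572, and without Gzma and Cd7 the lymphoid sums were 658.8 and 2039.

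For B and plasma cells, 2 of 10 markers were higher and 1 was lower, with sums of 559.6 in control and 505.2 in intestinal cells. By any amount, 8 of the 10 read above control, with a median of 0.31. On the control array 4 were above the limit, and on the intestinal array 7. Jchain, which joins polymeric antibodies, read 4.61 in control and 6.99 in intestinal cells. The lower member was Blnk, at 8.21 and 5.50, a signalling adaptor that the cultured cells also expressed. The sums of this list include Blnk. Eosinophil markers had 2 of 8 higher (Alox15 and Siglecf), with Epx, Prg3 and Ear6 below the limit on both arrays, and the sums were 278.9 and 489.6. Without Alox15 and Siglecf the eosinophil sums were 209.1 and 188.6. Basophil markers had 2 of 6 higher, Mcpt8 and the activation antigen Cd69, and 1 lower, Cd200r3; the sums were 1893 and 7264, and 934.9 and 328 without Cd69 and Mcpt8. Fibroblast and smooth muscle markers had 1 of 11 higher, Pdgfrb (5.62 and 8.39), with Col1a2, Dcn, Lum, Des, Pdgfra and Tagln below the limit on both. The sums of this list were 396.8 and 686.6, and 347.4 and 351 without Pdgfrb. Members left out in this paragraph were chosen after their values were seen. None was higher among 14 neutrophil, 10 endothelial, 8 neuronal and 2 erythroid markers. Lower were Ly6g among the neutrophil and Tek and Vwf among the endothelial markers. The part of such cells in the results below was not tested, and in a bulk sample more cells of a type and more RNA per cell cannot be told apart.

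Granule proteases separated the arrays in both directions. Of 18 measured members, all above the limit, 9 were higher and 3 lower, and the median was 1.25. The mucosal chymases Mcpt1 and Mcpt2 read 4.82 and 5.75 in control and 12.72 and 12.33 in intestinal cells, at least 195-fold apart for Mcpt1 and 95.8-fold apart for Mcpt2. On the Dll1 and TGF-beta1 arrays Mcpt1 read 12.46 and 12.41 and Mcpt2 11.74 and 12.35, so the control array alone was low for them. Mcpt4 (4.53 in control, 10.41 in intestinal cells) and Mcpt9 (4.54 and 7.08), further chymases of the same cluster, were at least 39.2-fold and at least 3.91-fold higher. Mcpt9 was below the limit on the TGF-beta1 and Dll1 arrays too, whereas Mcpt4 read 10.15 with Dll1. The pseudogene Mcpt-ps1 (8.42 and 12.38) was 15.6-fold higher. Probes can be shared among these related genes, so their separate levels are uncertain.

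Proteases better known from other immune cells were higher as well. Gzma, a granzyme of cytotoxic lymphocytes, was at least 37.1-fold higher, at 4.62 in control, 4.50 after TGF-beta1, 7.92 after Dll1 and 10.33 in intestinal cells. Gzmc followed the same order, at 4.51, 4.49, 6.08 and 8.12. Gzmb, which BMMCs also express, read 11.70 in control and 11.77 in intestinal cells. Ctsg (cathepsin G) was 9.38-fold and Mcpt8 5.41-fold higher, and both read nearly as high with Dll1, at 8.70 and 10.89. Gzma also stands in the lymphoid marker list, whose values are given above, as does Cd7, a surface protein of lymphocytes, which was 23.4-fold higher (5.50 and 10.05) and read 10.20 with Dll1.

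The lower proteases were the tryptases Tpsb2 and Tpsab1 and the chymase Cma1. Tpsb2 read 11.55 in control, 11.78 after TGF-beta1, 11.83 after Dll1 and 6.21 in intestinal cells, a 40.6-fold difference from control. Tpsab1 was 7.93-fold lower, at 8.25 and 5.26, and its levels with TGF-beta1 (11.81) and Dll1 (10.05) lay above both. Cma1 was 31.1-fold lower, at 12.12 and 7.16. The 3 cultures were thus all high for Tpsb2 and Cma1, and the intestinal array stood alone below them.

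The genes of the chymase cluster lie side by side on chromosome 14. Mcpt1, Mcpt2, Mcpt9, Mcpt4, Mcpt8 and Ctsg formed an unbroken run of 6 higher genes in the RefSeq order, taken over the measured genes, and it was the longest of 12 runs of at least 3 called genes. Not every chymase was higher: Cma1, which was lower (12.12 and 7.16), was not part of the run. The promoters of Mcpt1 and Mcpt4 are printed because the pair moved together between control and intestinal arrays and apart with TGF-beta1. Shown are the 250 bases before the RefSeq transcription start in GRCm38.p6, with TATAAA, the core of a TATA box, in capitals. They are chr14:56017714-56017963 on the plus strand for Mcpt1 and chr14:56062311-56062560 on the minus strand for Mcpt4.
Mcpt1: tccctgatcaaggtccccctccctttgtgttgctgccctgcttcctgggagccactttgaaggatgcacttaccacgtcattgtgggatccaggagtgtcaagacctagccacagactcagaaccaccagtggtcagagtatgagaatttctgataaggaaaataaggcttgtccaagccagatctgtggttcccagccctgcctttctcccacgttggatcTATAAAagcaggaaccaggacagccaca
Mcpt4: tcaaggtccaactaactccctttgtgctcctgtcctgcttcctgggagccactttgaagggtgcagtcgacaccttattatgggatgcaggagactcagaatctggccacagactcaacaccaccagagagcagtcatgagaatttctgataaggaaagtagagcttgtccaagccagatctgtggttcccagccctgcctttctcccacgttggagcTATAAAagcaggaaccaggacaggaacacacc
Shifted by 4 bases, without gaps, the windows shared 136 of 246 bases (55.3%), and TATAAA began 28 and 32 bases before the start. Both full 300-base windows also held TGGGAA, the motif of the Notch factor RBPJ, which 25.6% of all 32851 promoter windows and 23.2% of those of tested genes held on one strand or the other. TGGGAA stood in 2 of 14 protease windows, in 22.0% of windows of higher genes and in 25.8% of lower genes. TATAAA was found in 4 of 14 protease windows, against 13.6% of all windows. A match is a run of letters, not a shown binding site.

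**Figure D2:**
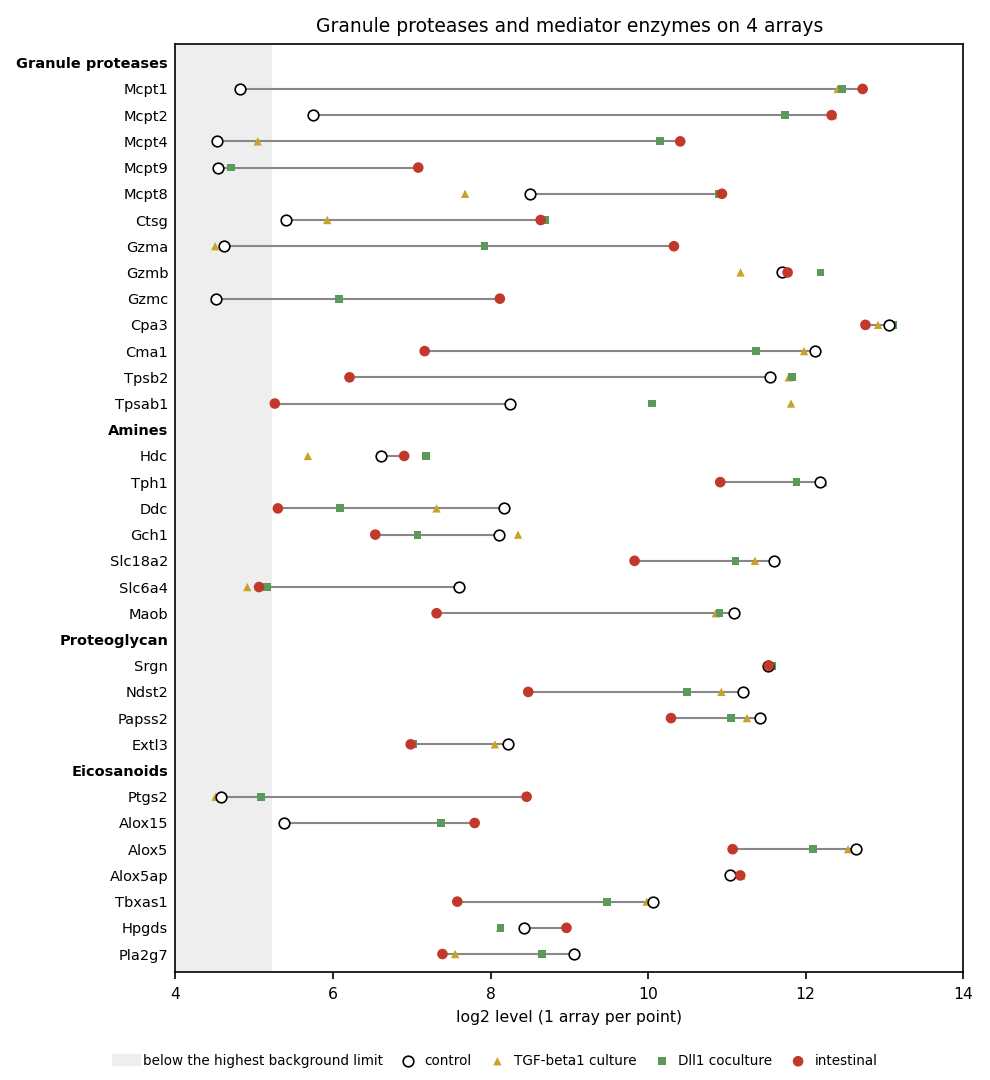
Log2 levels on the x axis of genes for granule proteases, amines, proteoglycan and eicosanoids, with 1 point per array and a line joining control (open circles) to intestinal cells (red circles); the grey band lies below the highest background limit. Mcpt1 and Mcpt2 are low on the control array alone, Tpsb2 and Cma1 are low on the intestinal array alone, and the amine genes other than Hdc sit to the left of control.

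Of 16 measured genes for making, moving, sensing and degrading amines, 7 were lower, none was higher, 3 were below the limit on both arrays and the median was -0.56. Maob, which oxidises amines, read 11.09 in control and 7.31 in intestinal cells (13.7-fold lower). Along the route to serotonin, the hydroxylase Tph1 was 2.40-fold, the decarboxylase Ddc 7.30-fold and Gch1, which makes the cofactor of the hydroxylase, 2.97-fold lower. Slc6a4, which takes serotonin up from outside the cell, was at least 5.59-fold lower (7.59 and 5.06) and was under the limit with TGF-beta1 (4.91). Hdc, which makes histamine, read 6.62 in control and 6.90 in intestinal cells and was not among the genes that differed. Of the histamine receptors, Hrh4 was 4.64-fold lower, at 10.03 and 7.82.

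Granule contents are held by a proteoglycan. Srgn, the serglycin core protein, read 11.52 in control and 11.53 in intestinal cells. Of 34 measured genes for it and its sugar chains, 4 were lower, none was higher and the median was -0.0092. Ndst2, the sulfotransferase needed for mast cell heparin, was 6.64-fold lower, at 11.21 in control, 10.93 after TGF-beta1, 10.49 after Dll1 and 8.48 in intestinal cells. Extl3 (2.36-fold), the sulfate donor synthase Papss2 (2.20-fold) and Hs6st2 (2.06-fold) were the others. The chondroitin genes Chsy1 (9.14 and 9.71) and Chst11 (9.12 and 9.01) did not pass, nor did Xylt1 (7.43 and 8.32), which starts the linkage common to both kinds of chain.

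Of 29 measured eicosanoid genes, 2 were higher and 3 lower, with a median of 0.03. Ptgs2, the inducible cyclooxygenase, was below the limit in control (4.58) and read 8.46 in intestinal cells, at least 10.1-fold higher. Alox15 was 5.35-fold higher, at 5.38 and 7.80. Tbxas1, the thromboxane synthase, was 5.61-fold lower (10.07 and 7.58), the lipoprotein phospholipase Pla2g7 was 3.18-fold lower, and Alox5, which starts leukotriene synthesis, was 2.96-fold lower (12.64 and 11.07). Its partner Alox5ap read 11.03 and 11.17. The leukotriene C4 synthase Ltc4s (6.49 and 5.80) and the prostaglandin D synthase Hpgds (8.43 and 8.96) did not pass. A second probe set of Alox5 differed by -0.89, short of the threshold.

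Of 41 measured secretion genes, 9 were lower, none was higher and the median was -0.45. Mlph, an effector that links Rab27 on granules to myosin, was 5.92-fold lower (8.53 and 5.96), and the small GTPase Rab38 was 5.51-fold lower (10.67 and 8.21). The membrane fusion protein Snap23 and its regulator Stxbp2 (9.38 and 8.30) were just past 2-fold, and Rab44, a large Rab of mast cell granules, read 11.39 and 10.02. Vamp8, a fusion protein of mast cell granules, read 10.35 and 10.07, and Rab27b 9.43 and 9.38. Lysosomal genes had a median of -0.36, with 4 of 34 higher, among them the cathepsins Ctsh and Ctss, and 4 lower, among them Ctsd (11.05 and 9.86) and the progranulin gene Grn (10.10 and 8.61).

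Of 48 measured genes for signalling below the IgE receptor, 9 were lower and 4 higher, with a median of -0.04. Pik3cd, the catalytic chain of a phosphoinositide 3-kinase, was 4.63-fold lower (10.28 and 8.07), and the adaptor Gab2, which recruits that kinase, 3.87-fold lower (9.90 and 7.95). Rasgrp4 (3.47-fold), the adaptor Lat2 (3.43-fold), Prkcd (3.10-fold), Plcg1 (2.74-fold), Grap2 (2.18-fold) and Prkca (2.05-fold) were lower too, and the channel Trpm4 was at least 2.44-fold lower. The genes on the other side included brakes on signalling: the phosphatase Ptpn22 was 8.58-fold higher (6.42 and 9.53) and the ubiquitin ligase Cbl 5.79-fold higher (6.81 and 9.35). Pik3ap1 (4.24-fold) and the kinase Fyn (2.77-fold) were also higher. Syk, the first kinase of the route, read 7.62 and 8.04, Lcp2 11.14 and 11.26, and Btk 9.90 and 8.91.

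Several paired surface receptors were lower. Of 26 measured genes for the IgE receptor and paired surface receptors, 7 were lower and 4 higher, with a median of -0.36. Cd200r3 and Cd200r4, members of the CD200 receptor family, were 13.8-fold and 11.7-fold lower, and Cd200r1 read 8.20 in control and 5.24 in intestinal cells. Pirb, an inhibitory receptor for MHC class I, was 13.1-fold lower (9.99 and 6.27), and Lilrb4a, a receptor of the same group, read 12.58 and 10.30. Cd300a and Cd300lf were the other lower members. Higher were Cd244a (8.74 and 10.47, 3.33-fold) and its ligand Cd48 (8.36 and 10.05, 3.24-fold), the adaptor Tyrobp (2.78-fold) and Siglecf, which passed the limit in intestinal cells alone (4.82 and 6.29). Several of these families hold near-identical copies whose probes may be shared.

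Among the receptors for interleukin-3 and stem cell factor, given to the cultures, only the beta chains for interleukin-3 passed, as lower. Of 38 measured cytokine and growth factor receptors, 8 were lower and 6 higher, with a median of 0.03. The beta chains for interleukin-3, Csf2rb2 (12.24 and 10.65) and Csf2rb (10.57 and 9.42), were 3.00-fold and 2.21-fold lower and formed a run of lower neighbours with Ncf4 on chromosome 15. Probes can be shared between these close copies, so their separate levels are uncertain. The alpha chain Il3ra (8.48 and 7.68) and the stem cell factor receptor Kit (12.65 and 11.75) did not pass. The interleukin-18 receptor chain Il18r1 (5.43-fold), Il10ra (4.88-fold), Epor (2.88-fold) and Il4ra (2.31-fold) were lower, and Il18rap was at least 2.51-fold lower. Il1r2, a decoy receptor for interleukin-1, was 4.38-fold higher (6.16 and 8.29), Tnfrsf1b 3.89-fold and Il6st, the shared chain of the interleukin-6 family, 2.84-fold higher. Il2rb was at least 4.17-fold, Csf1r at least 2.70-fold and Il21r at least 2.10-fold higher. The macrophage and lymphoid marker lists, given above, moved in the same direction as these last genes.

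SOCS genes are induced by cytokine receptors through STAT proteins and then dampen them. Of 8 measured, 3 were lower, none was higher and the median was -0.38. Socs1 was 4.96-fold (9.25 and 6.94), Socs2 3.30-fold (8.02 and 6.30) and Cish 2.48-fold lower (9.84 and 8.54). Socs3 read 5.28 and 5.16, near the limit on both arrays.

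Receptors for chemoattractants and mediators changed in both directions, 10 of 46 measured being higher and 9 lower, with a median of 0.14. Gpr65, a proton-sensing receptor, was at least 36.7-fold higher, at 4.90 in control, 5.67 after TGF-beta1, 6.48 after Dll1 and 10.32 in intestinal cells. Ccrl2, which binds the attractant chemerin without signalling, was 24.6-fold higher (5.70 and 10.32). Cxcr4, the receptor for CXCL12, was 21.3-fold higher (6.47 and 10.88). S1pr3 (4.92-fold) and P2ry10 (4.79-fold) followed, and Gpr183, a receptor for oxysterols, was at least 4.56-fold higher. The receptors Gpr18 and Gpr183 formed a run of 3 higher neighbours with Ubac2 on chromosome 14.

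The lower receptors included several that mast cells use to sense mediators. Ptger3, the prostaglandin E2 receptor that promotes mast cell activation, was 9.37-fold lower (8.97 and 5.74), whereas Ptger4, a receptor for the same lipid, was 2.16-fold higher (8.09 and 9.20). C3ar1, for complement C3a, was 4.96-fold lower (8.05 and 5.74), and Adora3, for adenosine, 3.53-fold lower (7.08 and 5.26). The ATP channel P2rx4 was 3.53-fold lower (10.95 and 9.13) and P2ry14 3.75-fold lower, while P2rx7 read 9.66 and 9.94. On all 3 culture arrays Ptger3 and C3ar1 stayed above 8.

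The Mas-related receptors, which sense peptides and other ligands on mast cells and neurons, gave opposite extremes. Of 20 measured, 8 were above the limit, 1 was higher and 2 were lower, with a median of -0.006. Mrgpra9 was at least 34.7-fold higher, at 4.71 in control, 8.30 after TGF-beta1, 4.59 after Dll1 and 10.23 in intestinal cells. Mrgpra4 was 31.4-fold lower, at 11.09 in control, 10.12 after TGF-beta1 and 6.12 in intestinal cells, with the Dll1 array between the latter, and Mrgpra2a read 8.62 in control and 7.52 in intestinal cells. Mrgprb2, known from connective tissue mast cells, was at 5.30 in control and below the limit in intestinal cells (4.55). Only Mrgpra9 was above the limit in intestinal cells and below it in control.

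Integrins, which anchor cells to matrix and to other cells, were higher for 6 of 25 measured and lower for 2, with a median of 0.29. Itgae, whose product pairs with the Itgb7 chain to bind E-cadherin, was 52.2-fold higher (5.57 and 11.28), and Itgb7 itself read 8.68 and 9.62. Itgax (CD11c) was at least 67.4-fold higher, at 4.86 in control, 5.22 after TGF-beta1, 5.27 after Dll1 and 11.19 in intestinal cells. Itgax is also a macrophage and dendritic marker, and 17 of the 19 measured members of that list read above control. The part of such cells in its level was not tested. Itgam (3.23-fold), Itga4 (3.19-fold) and Itgal (3.01-fold), chains of leukocyte integrins, were higher as well. The platelet-type chains Itga2b (10.30 and 8.61) and Itgb3 (7.86 and 5.71) were 3.24-fold and 4.44-fold lower.

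Cdh1, which encodes E-cadherin, the ligand of the Itgae product, was 15.5-fold higher, at 6.16 in control, 7.57 after TGF-beta1, 6.32 after Dll1 and 10.12 in intestinal cells. Its second probe set read 4.64 and 5.84. Cdh1 also counts as an epithelial marker, and all 30 measured members of that list read above control. The part of epithelial cells in the Cdh1 level was not tested. Among 35 measured adhesion molecules and tetraspanins, 5 were higher and 7 lower, with a median of 0.02. Emb (5.46-fold), Icam1 (3.32-fold) and the hyaluronan receptor Cd44 (2.81-fold) were higher. Cadm1, an adhesion molecule through which mast cells bind nerves and fibroblasts, was 23.4-fold lower (9.91 and 5.36), Gpm6a 22.5-fold (9.65 and 5.15) and Cadm3 20.7-fold lower (9.80 and 5.43). L1cam (5.40-fold), Cd151 (4.10-fold) and Cd9 (3.09-fold) were lower too, and Cdh2, which encodes N-cadherin, was at least 3.56-fold lower. A second probe set of Cd9 was below the limit on both arrays. That of Cdh2 read 5.77 in control and 5.22 in intestinal cells, short of the threshold.

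**Figure D3:**
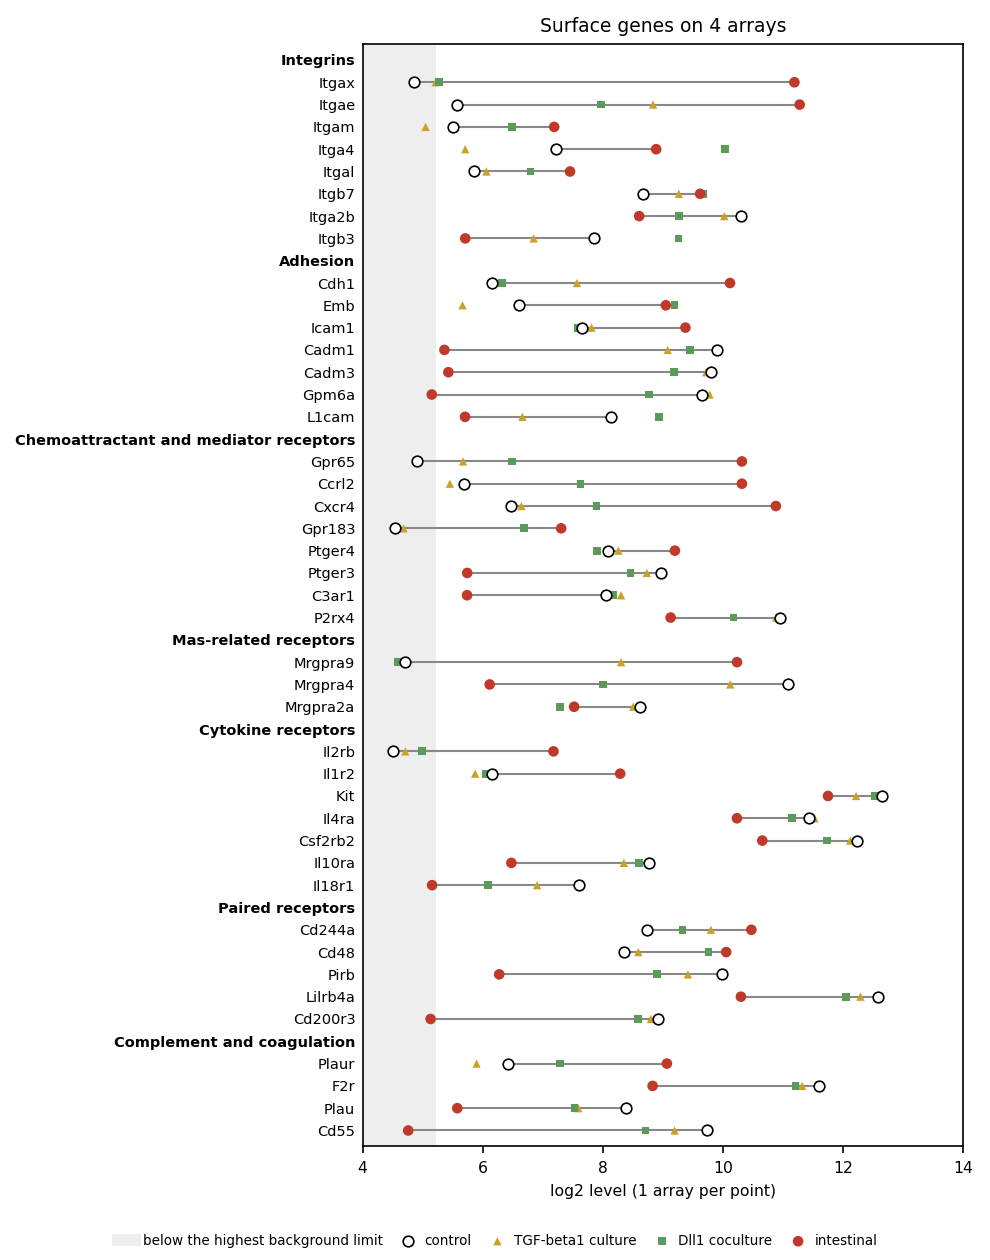
Log2 levels on the x axis of surface genes on the 4 arrays, with a line from control (open circles) to intestinal cells (red circles) and a grey band below the highest background limit. Itgax and Gpr65 are high on the intestinal array alone, Cadm1, Gpm6a, Cd200r3 and Cd55 are low on it alone, and Mrgpra9 and Mrgpra4 run in opposite directions.

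Of 21 measured genes for complement and coagulation at the cell surface, 6 were lower and 2 higher, with a median of -0.08. Cd55, which blocks complement on the cell's own membrane, was at least 24.6-fold lower, at 9.73 in control, 9.19 after TGF-beta1, 8.71 after Dll1 and 4.76 in intestinal cells. Cd59a, which blocks the last step of complement, was at least 4.36-fold lower (7.24 and 4.79), though it was also near the limit with TGF-beta1 (5.08) and Dll1 (5.15). The complement regulator Cr1l (9.25 and 8.84) and the anticoagulant receptors Thbd and Procr did not pass. The thrombin receptor F2r (6.82-fold), the plasminogen activator Plau (6.99-fold) and, as bounds, its inhibitor Serpinb2 (at least 10.2-fold) and F13a1 (at least 5.71-fold) were lower, while Plaur, the receptor of Plau, was 6.23-fold higher (6.43 and 9.07).

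Genes that keep lymphocytes resident in tissue were higher for 5 of 11 measured, none lower and a median of 0.95. Besides Itgae these were Rgs1, a brake on chemokine receptor signalling (7.52 and 10.77, 9.53-fold), Cd69, which blocks exit from tissue (9.22 and 12.28, 8.36-fold), the ligand-activated transcription factor Ahr (2.52-fold) and the repressor Prdm1 (at least 2.44-fold). Cd69 is also a basophil marker here, and on the Dll1 array Rgs1 read 9.25 and Cd69 11.29. Of 6 measured egress genes, Klf2 was higher and S1pr4 lower. The Ahr target Ahrr (8.13 and 7.09) and the related Nqo1 (8.60 and 6.55) were lower, and Cyp1a1 and Cyp1a2 were below the limit on both arrays.

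Of 23 measured transcription factors of the mast cell lineage, all above the limit, 2 were lower and 1 was higher, near the shares over all genes tested (6.74% and 4.47%), and the median was -0.13. Gata1 was lower (8.24 and 6.62), as was Nfe2 (6.80 and 5.58), and Lmo4 was higher (7.57 and 8.80). Mitf (8.92 and 8.29), Spi1 (6.03 and 6.12), Runx1 (10.47 and 9.92) and Stat5b (9.15 and 8.82) did not pass. Outside that list, Epas1, which encodes the hypoxia-inducible factor HIF-2 alpha, was at least 59.7-fold higher, at 4.97 in control, 5.09 after TGF-beta1, 5.28 after Dll1 and 11.02 in intestinal cells. Sox4 read 4.90 in control and 8.14 in intestinal cells, and its second probe set 4.40 and 5.76. Meis2, a homeobox factor, was at least 15.3-fold lower (9.05 and 5.10).

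Hypoxia-inducible factors as a family are known to act on glycolysis genes, and a link between Epas1 and the list below was not tested. Of 28 measured members of the glycolysis and hypoxia list, 5 were lower, none was higher and the median was -0.36. Aldoc read 8.37 in control and 5.18 in intestinal cells, the platelet-type phosphofructokinase Pfkp 10.11 and 8.65, Ndrg1 9.04 and 7.64, Pgam1 9.67 and 8.61 and Bnip3 6.16 and 5.15. Vegfa read 8.38 and 9.10. Adm, Egln3 and Pdk1 were below the limit on both arrays.

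The list with the largest share of called members was that of the immediate early genes, which encode transcription factors and RNA regulators that cells switch on within minutes of a stimulus. Of 37 measured, all above the limit, 30 were higher, none was lower and the median was 2.34. Nr4a1, an orphan nuclear receptor, read 5.95 in control, 5.85 after TGF-beta1, 10.51 after Dll1 and 12.36 in intestinal cells. Jun, a subunit of AP-1, read 8.17, 8.61, 9.36 and 12.49, and Atf3 5.19, 5.37, 5.62 and 8.96. Zfp36, which destabilises cytokine mRNAs, read 5.53, 5.69, 7.92 and 10.51. Control and TGF-beta1 arrays were low for these genes, the Dll1 array was intermediate for Nr4a1 and Zfp36 and near control for Atf3, and the intestinal array was highest for all 4. The members that did not pass were Arc, Gadd45g, Mcl1, Ier3, Ccn1, Ccn2 and Egr4. Both arrays with high levels had gone through cell separation, by flow cytometry or beads, and the part of handling in these values was not tested.

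Feedback inhibitors of MAP kinase signalling were higher for 9 of 18 measured and lower for none, with a median of 1.07. The phosphatase Dusp1 read 6.38 in control and 12.25 in intestinal cells. Dusp2 was 16.4-fold higher and was near 5.4 on each culture array, and Errfi1, an inhibitor of EGF receptors, was 14.9-fold higher (5.21 and 9.11). NF-kB genes were higher for 8 of 22 and lower for none, with a median of 0.54, led by the inhibitors Tnfaip3 (14.3-fold), Nfkbiz (14.2-fold) and Nfkbia (7.36 and 10.66). The subunit Rel was higher (9.10 and 10.89), while Rela read 8.55 and 9.07.

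Heat shock genes, which encode chaperones for damaged proteins, were higher for 6 of 24 measured, with a median of 0.69. Hspa1a and Hspa1b, adjacent near-identical genes for the inducible HSP70, were at least 100.4-fold and at least 79.0-fold higher. Hspa1a read 4.53 in control, 4.61 after TGF-beta1, 5.04 after Dll1 and 11.77 in intestinal cells, and Hspa1b 4.98, 4.90, 4.82 and 11.42. Unlike the immediate early genes, both were below the limit on the Dll1 array. The cochaperone Dnajb1 (7.71 and 10.07), Hsph1 (8.35 and 10.68), Bag3 (5.95 and 7.47) and Hspb1 (4.55 and 7.14) were the other higher members, though the second probe set of Hspb1 was below the limit on both arrays. In the unfolded protein response list 7 of 26 measured were higher, none was lower and the median was 0.34; the first were the chaperone Hspa5 (8.34 and 10.95) and Ddit3 (7.86 and 9.78).

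**Figure D4:**
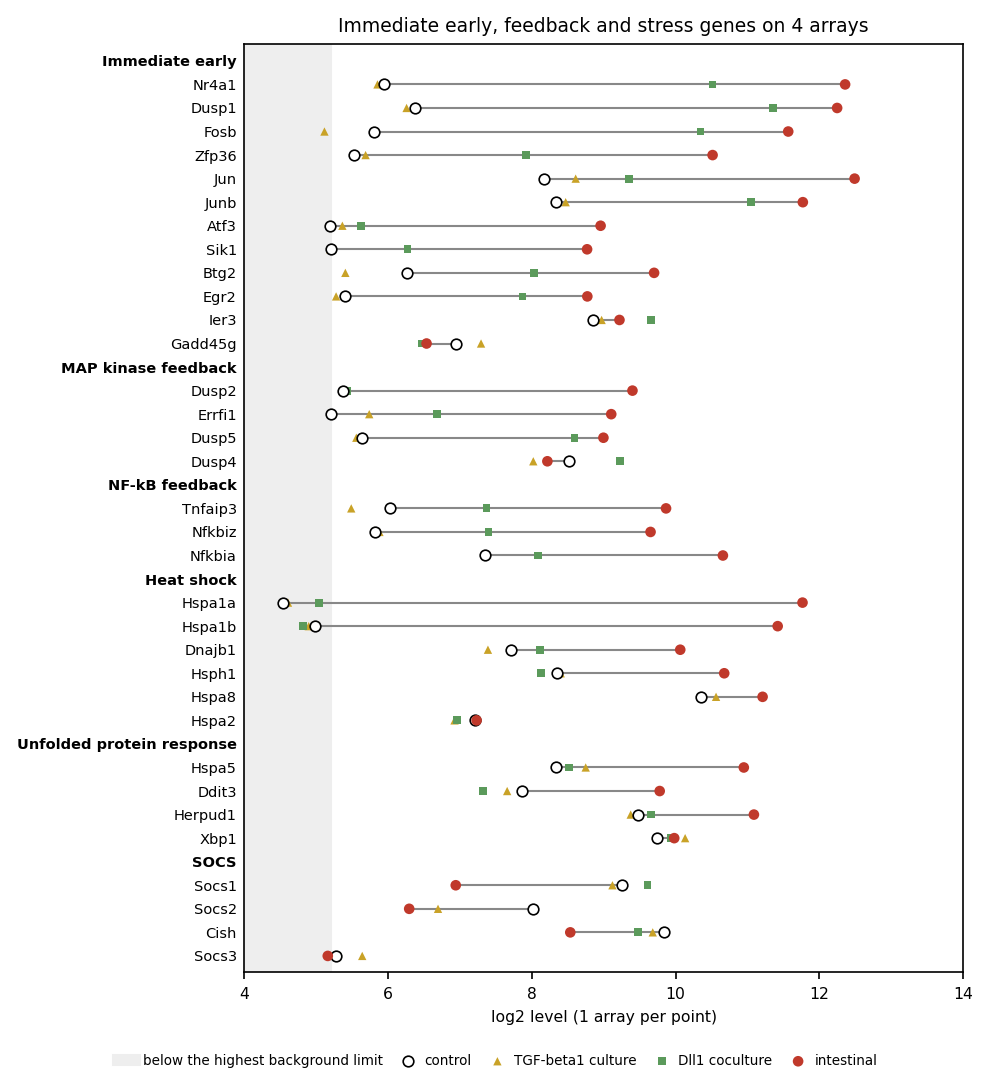
Log2 levels on the x axis of immediate early, feedback, heat shock, unfolded protein response and SOCS genes on the 4 arrays, with a line from control (open circles) to intestinal cells (red circles) and a grey band below the highest background limit. Dll1 points (squares) lie between control and intestinal cells for Nr4a1, Dusp1 and Fosb but at the control end for Hspa1a, Hspa1b, Dusp2 and Atf3, and the SOCS genes run to the left.

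Promoters of 6 higher genes of the immediate early and heat shock lists are printed, picked because each holds a letter pattern known from such promoters. They are the 250 bases before the RefSeq start in GRCm38.p6, all on the minus strand except Egr2. Capitals mark GAANNTTC, a heat shock element, in Hspa1a (chr17:34972157-34972406) and Hspa1b (chr17:34959239-34959488).
Hspa1a: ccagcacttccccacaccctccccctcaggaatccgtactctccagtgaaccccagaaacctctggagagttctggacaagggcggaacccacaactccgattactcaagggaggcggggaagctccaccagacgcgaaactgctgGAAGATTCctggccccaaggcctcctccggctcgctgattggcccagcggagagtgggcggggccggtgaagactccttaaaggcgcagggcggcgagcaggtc
Hspa1b: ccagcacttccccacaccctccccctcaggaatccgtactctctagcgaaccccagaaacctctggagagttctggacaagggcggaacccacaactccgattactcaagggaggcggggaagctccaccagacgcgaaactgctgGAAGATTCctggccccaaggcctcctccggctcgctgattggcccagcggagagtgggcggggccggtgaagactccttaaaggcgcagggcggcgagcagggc
These windows shared 247 of 250 bases (98.8%), and the element began 104 bases before the start in both. For Dusp1 (chr17:26508473-26508722) and Btg2 (chr1:134079156-134079405) the capitals mark TGACGTCA, a cAMP response element.
Dusp1: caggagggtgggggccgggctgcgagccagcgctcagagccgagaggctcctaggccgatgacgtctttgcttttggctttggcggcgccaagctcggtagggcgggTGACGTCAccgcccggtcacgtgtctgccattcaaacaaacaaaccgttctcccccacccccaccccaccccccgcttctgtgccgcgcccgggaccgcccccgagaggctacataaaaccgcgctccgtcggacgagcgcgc
Btg2: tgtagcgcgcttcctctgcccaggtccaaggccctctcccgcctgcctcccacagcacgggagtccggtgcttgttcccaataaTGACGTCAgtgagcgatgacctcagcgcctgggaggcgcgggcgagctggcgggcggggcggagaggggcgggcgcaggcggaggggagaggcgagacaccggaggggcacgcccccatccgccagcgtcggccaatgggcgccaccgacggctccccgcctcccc
In Zfp36 (chr7:28379229-28379478) and Egr2 (chr10:67537316-67537565, plus strand, 1 of 5 windows of that gene) they mark a CArG box, the motif of serum response factor.
Zfp36: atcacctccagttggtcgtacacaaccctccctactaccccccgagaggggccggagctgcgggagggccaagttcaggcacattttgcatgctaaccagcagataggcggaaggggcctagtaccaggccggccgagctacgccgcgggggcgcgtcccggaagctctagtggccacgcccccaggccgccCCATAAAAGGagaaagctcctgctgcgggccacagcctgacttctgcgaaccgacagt
Egr2: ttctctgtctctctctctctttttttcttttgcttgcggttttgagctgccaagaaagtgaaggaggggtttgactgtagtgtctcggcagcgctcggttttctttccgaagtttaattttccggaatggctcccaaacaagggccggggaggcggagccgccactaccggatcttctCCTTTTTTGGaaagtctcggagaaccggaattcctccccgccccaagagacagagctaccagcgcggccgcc
Over the full 300-base windows, searched on both strands, GAANNTTC stood in 13 of 25 windows of the heat shock list, in 7.57% of windows of higher genes, 5.97% of lower genes, 5.86% of all tested genes and 7.86% of all promoters. TGACGTCA was found in 4 of 39 windows of immediate early genes (Btg2, Dusp1, Maff and Ppp1r15a), in 3.60% of windows of higher, 0.820% of lower and 2.88% of tested genes, and in 1.79% of all promoters. The CArG box stood in 5 of 39 immediate early windows, of which 4 belong to Egr2 and 1 to Zfp36, in 2.16% of windows of higher, 1.64% of lower and 1.34% of tested genes, and in 1.63% of all promoters. TGANTCA, the AP-1 motif, was in 8.29%, 7.38% and 5.47% of windows of higher, lower and tested genes, and in 7.81% of all promoters. A window was found for 438 of the 569 higher and 658 of the 857 lower genes.

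Of 38 measured cytokines and growth factors, 22 of them above the limit, 6 were higher and 3 lower, with a median of 0.12. Tnf was 9.32-fold (6.90 and 10.12), Il1b 6.46-fold (6.18 and 8.87) and Il4 3.77-fold higher (7.06 and 8.97), and Il1a, Csf1 and Osm also passed. Tnfsf4 (OX40 ligand) was at least 4.74-fold lower, and Lif (6.74 and 5.39) and Tnfsf14 (6.96 and 5.71) were lower. The type 2 cytokine Il13 read 6.32 and 7.31, just short of 2-fold, and Il9 and Il10 were below the limit on both arrays. Among 22 chemokines 6 were higher and 3 lower, with a median of 0.33: Ccl4 (12.2-fold), Ccl5 (10.9-fold) and Ccl3 (6.68-fold) were higher, and Ccl2 was 11.1-fold lower (9.60 and 6.13), as were Ccl6 (8.02 and 5.55) and Ccl9 (6.79 and 5.50).

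Genes of antigen presentation by MHC class II included 7 higher of 19 measured and no lower one; the median was 0.68. H2-Ab1 read 5.90 in control, 6.07 after TGF-beta1, 8.63 after Dll1 and 8.69 in intestinal cells, and H2-Aa 5.09, 5.27, 6.26 and 6.92. Together with H2-Eb1 these formed a run of higher neighbours on chromosome 17. The costimulatory ligand Cd80 was at least 3.63-fold higher (4.68 and 6.98), and unlike the class II chains it was below the limit on the Dll1 array (4.63).

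Genes of the Notch and TGF-beta pathways changed in both directions. Of 33 measured Notch genes, 4 were higher and 5 lower, with a median of -0.06. The target Hey1 was at least 24.1-fold higher, the receptor Notch1 read 6.25 and 7.78, the target Hes1 6.03 and 7.51 and the coactivator Maml2 6.39 and 7.94, whereas Lfng, which modifies Notch receptors with sugar, was 5.73-fold lower (8.43 and 5.92), and Dtx3 (7.76 and 5.69), Dtx4 (10.16 and 8.09), Maml3 and the second Hey gene, Hey2, were lower too. Rbpj read 9.07 and 8.86. Of 39 TGF-beta genes, 6 were higher and 4 lower, with a median of 0.01. The higher ones included Ltbp4, which stores latent TGF-beta in matrix (at least 10.6-fold), and the inhibitors Skil (5.77 and 8.55), Tgif1 (5.51 and 7.88), Pmepa1 (5.45 and 6.88) and Ldlrad4 (15.2-fold). The receptor Tgfbr1 was lower (9.56 and 8.10) and Tgfbr2 read 8.48 and 8.17.

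Cell cycle genes were higher for 6 of 42 measured and lower for 1, with a median of 0.27; Mcm5 (8.94 and 10.45), Mcm4 and Mcm6, parts of the helicase that starts replication, and the loading factors Cdt1 and Cdc6 were among the higher ones, and Ccnd2 (10.89 and 9.66) was lower. Mki67 read 9.37 and 9.82. In the cholesterol list 3 of 21 were lower and the median was -0.21; Lss read 8.79 and 6.74. Fatty acid and lipid handling had 6 lower and 2 higher of 26, with the desaturase Scd1 at 6.95 and 4.79. Amino acid genes were higher for 2 of 21 and lower for 1, too few to set the list apart from all genes tested. The cystine transporter Slc7a11 read 5.13 and 7.78, although its second probe set was below the limit on both arrays.

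Calcium-binding S100 and annexin genes were lower for 6 of 17 measured and higher for none, with a median of -0.70. S100a6 was 20.2-fold lower (10.15 and 5.81), S100a10 read 10.71 and 7.96, and S100a4 8.52 and 5.79. With TGF-beta1 S100a6 (7.75) and S100a4 (6.28) also stood below control, while with Dll1 they read 10.78 and 9.18. Lgals1, a galectin, was 20.3-fold lower (11.55 and 7.21), and Vcl (vinculin), which ties adhesion sites to actin, 14.1-fold lower (10.99 and 7.17). Matrix genes had 5 lower and 1 higher of 34, and semaphorins, plexins and ephrins 5 and 2 of 39. Igfbp5 was at least 22.6-fold lower (9.61 and 4.79), and Plxnb3 read 8.05 and 5.30.

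**Figure D5:**
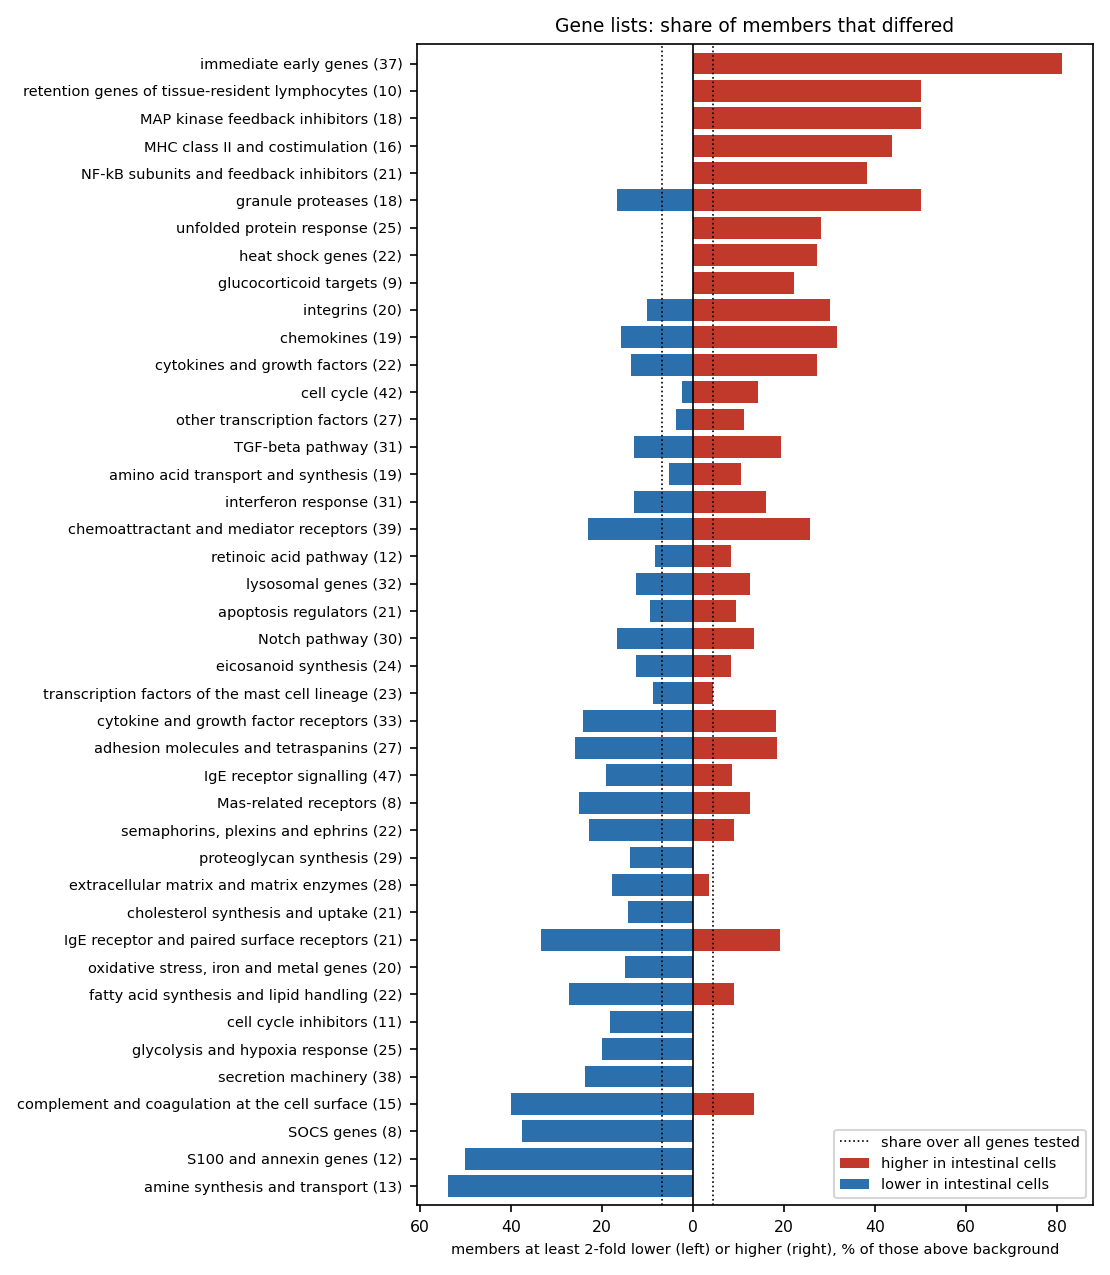
For each gene list with at least 8 members above background (number in brackets), bars give the percent of those members that were at least 2-fold higher (red, right) or lower (blue, left) in intestinal cells. Dotted lines mark the shares over all genes tested, 4.47% higher and 6.74% lower; immediate early genes reach farthest to the right and amine genes farthest to the left.

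Other genes at the extremes, taken by size alone, named further surface and regulatory genes. Plac8 was 22.0-fold higher, at 5.71 in control, 8.74 after TGF-beta1, 7.55 after Dll1 and 10.17 in intestinal cells. The small GTPase Gem was 17.1-fold, the sorting nexin Snx18 14.8-fold and Ankrd6 12.5-fold higher, and the kinase Prkch was at least 16.3-fold and Apol9b at least 28.0-fold higher. At the low end stood the peptidase Anpep (CD13, 16.1-fold), the receptor Gpr176 (17.3-fold), the GTPase regulators Arhgap20 (24.5-fold) and Tiam1 (15.7-fold), the growth factor Bmp7 (17.8-fold) and the betaine transporter Slc6a12 (15.3-fold). The phosphatase Ptprg was at least 23.4-fold and the glycolipid enzyme A4galt at least 15.7-fold lower. Rny3 and Rny1, the 2 Y RNAs tested, small noncoding RNAs bound by the Ro protein, were 29.1-fold and at least 9.11-fold lower. Of 512 tested long noncoding RNAs, 15 were higher and 28 lower, close to the shares over all genes.

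Interferon response genes had 5 of 39 higher, led by Isg15 (5.33 and 7.59), and 4 lower, led by Gbp4 (9.31 and 6.49), with a median of 0.13. The glucocorticoid targets had 2 of 11 higher, Errfi1 and the clock gene Per1 (6.83 and 9.25), and Tsc22d3 and Fkbp5 did not pass. Among retinoic acid genes 1 of 18 was higher, Tgm2, and 1 lower, Rxrg. Apoptosis regulators had 2 of 23 higher and 2 lower, oxidative stress and metal genes 3 of 22 lower, among them Gclm (7.94 and 6.64), and cell cycle inhibitors 2 of 12 lower, Rb1 and Cdkn2a. Other transcription factors had 3 of 28 higher, Sox4, Bcl6 and Prdm1, and 1 lower, Id2 (7.90 and 6.64). Beside 4.47% higher and 6.74% lower over all genes tested, the counts of 1 or 2 members in this paragraph do not set a list apart.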

How the data were processed

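RNA of 4 BALB/c mast cell samples was hybridised to 1 Affymetrix array each, and this account uses the control and intestinal arrays. The deposited table holds log2 values that the authors had already processed. Which software, which normalization and what build made them is not given in the sources used here, so scale and centring rest on the values. The probe sets were named through the platform annotation: 23521 had 1 gene symbol, 1814 had several and 8458 were not listed. For the 1082 genes with more than 1 probe set, the brightest over the 4 arrays was kept.

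The difference is the intestinal minus the control log2 value, with values under each array's limit (95th percentile of receptor genes) raised to it, and a call needs a log2 difference of 1. Each group has 1 array, so no p-value, SD or replicate check exists, and the precision is limited by the number of arrays. The members and the 56 gene lists were chosen with earlier results of these data known. Named genes are list members, the 25 highest and 25 lowest differences among genes above the limit on both arrays, the 12 largest bounds each way, and members of runs of neighbours, leaving out predicted genes, segments of immunoglobulin or antigen receptor genes, and RNAs of the micro, nucleolar and nuclear classes. Alternatives were another normalization, other limits, the mean of probe sets, an offset of 16 and the count without 3 kinds of lists. Promoter windows are RefSeq's (GRCm38.p6), found for 9983 of the 12722 genes tested. Python 3.11.15, pandas 2.3.3, numpy 2.4.6 and matplotlib 3.10.9 were used. The calling step was tested on simulated data, with changes far past the threshold in genes well above the limit. That simulation does not show how calls near the threshold or near the limit behave.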

Additional observations from a re-analysis of the deposited data

Results flagged for a closer look

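Probe sets outside the gene comparison also differed between the arrays. Of the 8458 probe sets that the annotation does not list, 2589 were above the background limit on 1 array or both; 113 were higher and 99 lower in intestinal mast cells, by up to 27.8-fold and 13.5-fold. Among the 1814 probe sets with several symbols, 955 were above the limit, and 26 were higher and 60 lower, by up to 92.5-fold and 23.7-fold. These probe sets are counted because they lie outside the main measurement, and no gene is named from them.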

How the results depend on the processing

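The counts of 569 higher and 857 lower genes stayed within 1.5 times under each of the 8 alternatives run, between 438 and 820 higher and between 704 and 1179 lower. The lowest counts came with the limit at the 99th percentile and the highest with 16 subtracted before log2. Without the immediate early, heat shock and other-cell marker lists, counts that could only fall, 508 higher and 852 lower genes remained. Higher genes made up 39.9% of calls, 35.6% with arrays centred on their medians and 43.6% with quantile normalization repeated. Of 391 called named genes, none turned direction under the 7 alternatives run on them. Changed limits, the offset and centring could hardly turn a called gene, because they rescale or shift the same 2 values. Under those settings the outcome is therefore no check of direction. Sizes did depend on the setting: of 1084 named values, 192 moved by more than 0.48 (log2) with the limit at the 99th percentile, 148 with 16 subtracted, 31 with no limit and 19 with the mean of probe sets. Calls were kept by 384 with centring, 383 with quantile normalization, 383 with the mean of probe sets and 345 with the limit at the 99th percentile; Csf1r, Cd5, Fabp1 and Ctsh were among those lost there, and Cd9 and Fabp5 were lost with the mean of probe sets. The median of the T cell and innate lymphoid list was 1.40 with 16 subtracted, against 0.76. No paired analysis was possible because each group has 1 array. Signal near background limits the low genes, whose folds are bounds.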

Other observations

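Runs of neighbouring called genes were also found among lower genes, 9 of the 12 runs. Ikzf4, Suox and Rab5b on chromosome 10, Myadm, Cacng7 and Cacng8 on chromosome 7, and Cntrob, Trappc1 and Kcnab3 on chromosome 11 each formed such a run of 3. By class, 9 of 129 tested microRNA genes (6.98%) were higher and 2 (1.55%) lower, and 5 of 59 small nucleolar RNAs (8.47%) were higher and 7 (11.9%) lower, beside 4.47% and 6.74% over all genes tested. These counts are small and were not tested.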
